A study of Saccharomyces cerevisiae with 6 samples.

Results

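The nuclear genes for the respiratory chain and the mitochondrial ATP synthase were compared between a yeast strain with *kcs1*-S537A,S646A and a strain with wild-type *KCS1*. The 40 genes were taken from a list of subunit names and not by their values. Of the 7126 genes in the count table, each of the 40 names matched 1 gene, and all 40 were among the 6083 genes that passed the filter on low counts. They encode 4 subunits of succinate dehydrogenase, 9 of the cytochrome bc1 complex, 2 forms of cytochrome c, 9 subunits of cytochrome oxidase, 13 of the ATP synthase, and 3 NADH dehydrogenases of the inner membrane. Both strains were *kcs1*Δ/Δ diploids of the filamentous background Σ1278b (Siga1278b in the labels). The mutant group was 3 colonies that carried *kcs1*-S537A,S646A on the plasmid pRS416, an allele in which alanines replace 2 serines of the inositol pyrophosphate kinase Kcs1, and the wild-type group was 3 colonies that carried wild-type *KCS1* on pRS416. In both strains, therefore, the only *KCS1* gene was on a low-copy plasmid, under its native promoter. Each colony was grown in low-nitrogen medium, for 20 h by the sample labels, and its poly(A) RNA was sequenced. The comparison asks which transcripts depend on these phosphorylation sites, studied as part of Snf1 kinase signaling. Each allele is represented by a single strain, so the tests measure the difference between these strains against the spread between colonies.

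In mitochondria, electrons from NADH and succinate pass through ubiquinone to the bc1 complex, then through cytochrome c to cytochrome oxidase, which reduces oxygen. The protons pumped on the way drive ATP synthesis. Baker's yeast lacks the proton-pumping NADH dehydrogenase of most eukaryotes and uses single-protein dehydrogenases instead, *NDI1* facing the matrix and *NDE1* and *NDE2* facing the intermembrane space. Many of these genes are repressed by glucose and activated by the CCAAT-binding Hap2/3/4/5 complex, and the Snf1 kinase is required for growth on carbon sources that must be respired.

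Between 20529351 and 22701020 fragments were counted per mutant sample, against 17950923 to 20822332 per wild-type sample, and no member had fewer than 262 counts in any sample. Values are given in CPM, in which counts are brought to a common library size with TMM scaling. *KCS1* itself, the gene the strains differ in, had 272, 797 and 347 CPM in the mutant, against 367, 309 and 341 CPM in wild type, with mutant replicate 2 above all other samples. As a group, the 407 genes tested on chromosome XIV were lower in every mutant sample, with median log2 differences from the wild-type mean of -0.52, -0.55 and -0.53, and 387 of them had a log2 fold change below 0. On chromosome VI, 131 genes were tested, and their median was -0.96 in mutant replicate 1. Among the 40 genes, *COX5A* lies on chromosome XIV and *QCR6* on chromosome VI. Only RNA was sequenced, so the copy number of chromosomes XIV and VI in these strains is not known from these data, and its part was not tested. As the cultures were measured in bulk, less RNA in every cell and fewer expressing cells cannot be told apart.

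These transcripts were abundant in both strains. Per kilobase of coding length, the median level of the 40 genes was 489.7 CPM in the mutant and 547 CPM in wild type, where the median of all genes tested was 42.7 CPM in the mutant and 43.4 CPM in wild type. Of the 40 genes, 27 were among the 500 most highly expressed of the 6083 genes by this measure. The highest mean levels were those of *COX9*, with 1482 CPM per kb in the mutant and 1310.3 in wild type, and *COX5A*, with 1025 CPM per kb in the mutant and 1647 in wild type. The isoform genes *NDE2* and *COX5B* were lowest, with 20.1 CPM per kb in the mutant and 24.2 in wild type for *NDE2* and 35.4 CPM per kb in the mutant and 32.1 in wild type for *COX5B*. Within the ATP synthase, all levels lay between 159 CPM per kb (*ATP19*) and 703 CPM per kb (*ATP2*) in the mutant and between 150.4 and 731 CPM per kb for the same genes in wild type. Together the 40 genes took 0.999, 1.31 and 1.07% of all counts in mutant replicates 1, 2 and 3, against 1.29, 1.27 and 1.33% in the wild-type replicates, so that mutant replicates 1 and 3 were below and mutant replicate 2 was among the wild-type values.

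**Figure D1:**
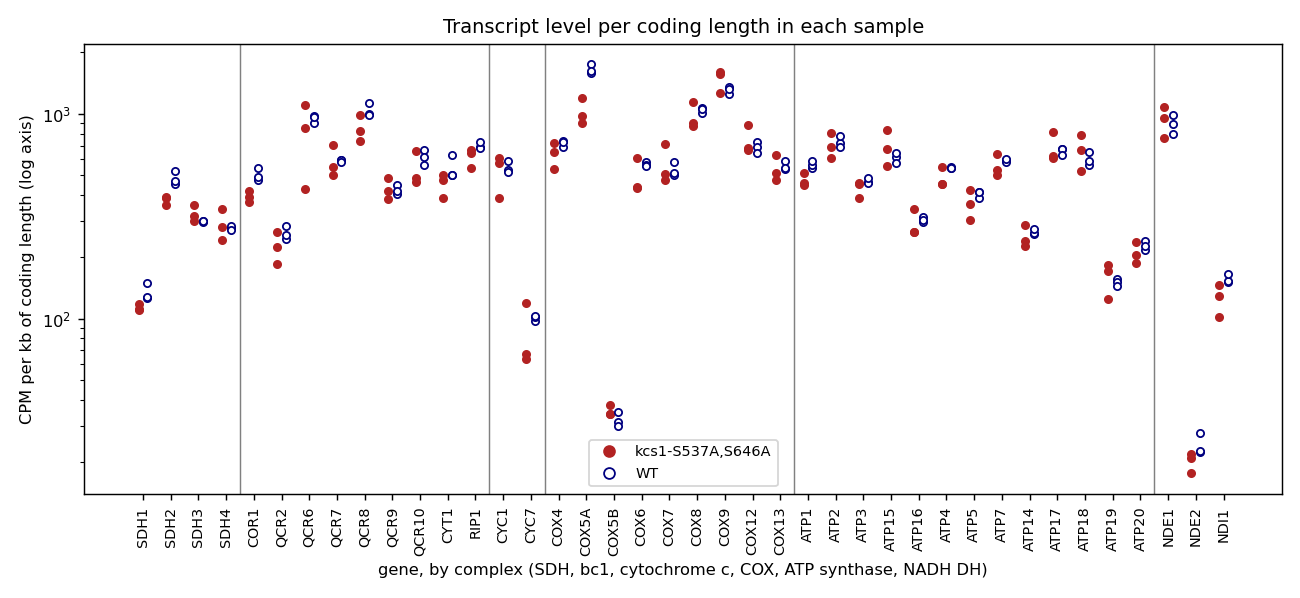
Transcript level of each gene per kilobase of coding length, in CPM per kb on a log axis, with filled points for the 3 mutant samples and open points for the 3 wild-type samples. Within most genes the strains overlap, while *COX5A* is lower in all 3 mutant samples and the isoform genes *CYC7*, *COX5B* and *NDE2* lie far below *CYC1*, *COX5A* and *NDE1*.

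A single gene of the 40 changed past the threshold. The test was edgeR's quasi-likelihood test, with p-values adjusted by the Benjamini-Hochberg method over all 6083 genes and a threshold of 0.05. *COX5A*, for the aerobic form of cytochrome oxidase subunit V, fell to 474 ± 68.1 CPM in the mutant, against 761 ± 39.2 CPM in wild type (SD, n = 3 each). That is 1 of 40 genes called (2.5%), where 5.66% of all genes tested were called in either direction and 4.67% were called lower. Outside chromosomes XIV and VI, 0 of 38 genes were called by edgeR, where 1.98% of all genes tested there were. At an unadjusted p under 0.05 in edgeR, 6 of these 38 genes were lower and 0 were higher. DESeq2 called 2 of them lower (5.26%), where it called 2.26% of all genes tested there lower.

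By value, 28 of the 40 genes (70%) were lower in the mutant and 12 were higher, where 46.8% of all genes tested were lower. Log2 fold changes ran from -0.68 to 0.18 with a median of -0.11, against a median of 0.015 over all genes tested. In 9 genes (22.5%) the 3 mutant values lay below the 3 wild-type values, which held for 14.8% of all genes tested. Outside chromosomes XIV and VI this held for 8 of 38 genes (21.1%), against 9.9% of all genes tested there. In 1 gene (2.5%) the mutant values lay above, against 11.8% of all genes. Unadjusted p-values under 0.05 were found for 7 lower genes (17.5%) and for 0 higher ones, where 11.9% of all genes tested were lower at that level and 8.24% were higher. Outside chromosomes XIV and VI, 6 of 38 genes (15.8%) were lower at that level, against 6.87% of all genes tested there. The 7 lower genes of the 40 were *COX5A*, *SDH2*, *COR1*, *SDH1*, *ATP1*, *NDI1* and *QCR8*.

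**Figure D2:**
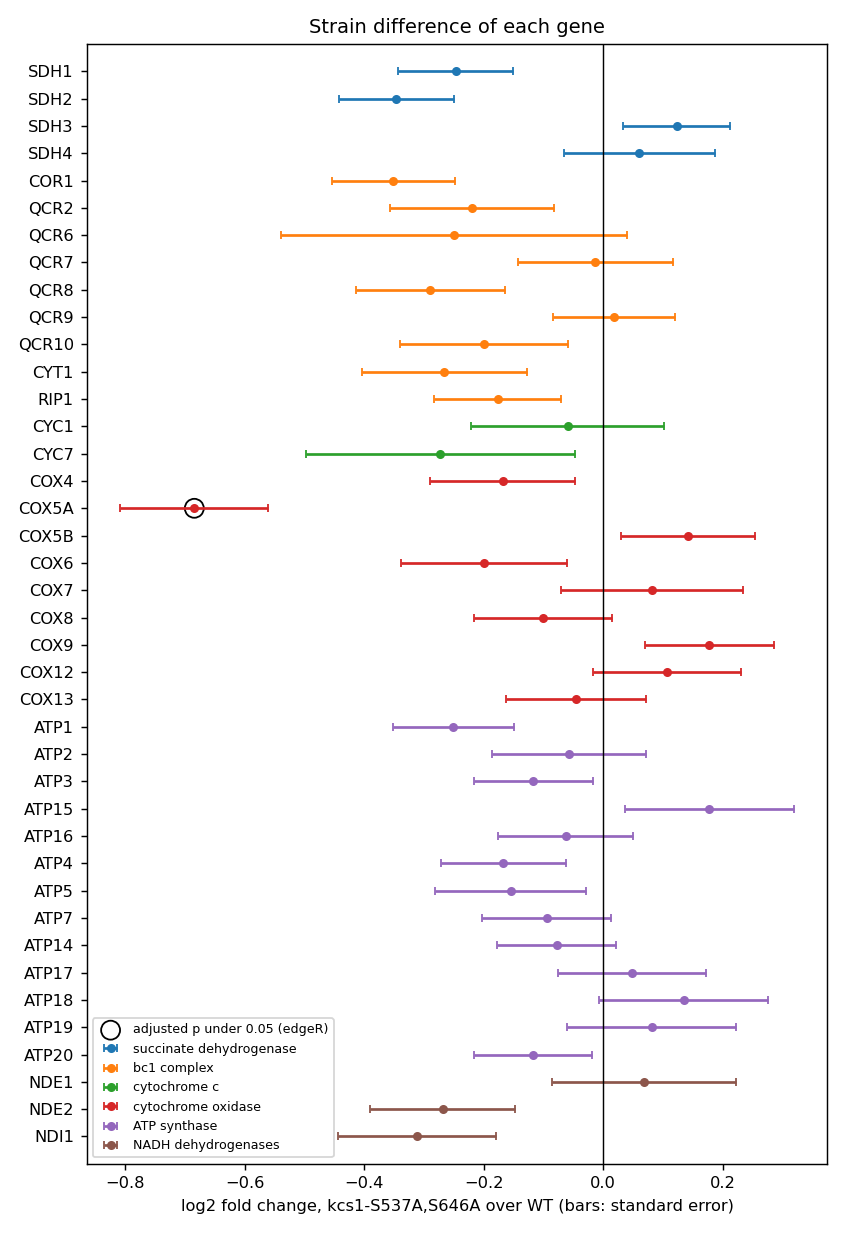
Log2 fold change of each gene, *kcs1*-S537A,S646A over wild type, with bars for the standard error from edgeR and colours for the complex. *COX5A*, circled, is the one gene with an adjusted p under 0.05, and the other 39 lie between -0.35 and 0.18.

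The 3 mutant colonies differed from each other, and across most of the 40 genes they differed in the same order. Mutant replicate 2 had the highest value of the 3 mutant samples in 34 of the 40 genes (85%), against 36.2% of all genes tested. The value of mutant replicate 1 was the lowest of all 6 samples in 22 genes (55%), against 24% of all genes. Relative to the wild-type mean, the median log2 difference of the 40 genes was -0.23, 0.10 and -0.19 in mutant replicates 1, 2 and 3, and 0.0066, -0.038 and 0.0061 in the wild-type samples. Below the wild-type mean were 30, 13 and 37 of the 40 genes in mutant replicates 1, 2 and 3 (75, 32.5 and 92.5%, against 50.9, 49.9 and 49.1% of all genes tested). Mutant replicate 2 is also the sample with the highest *KCS1* level, and mutant replicate 1 the one with low chromosome VI transcripts. The shares of all genes given here and above are not matched for gene length or for transcript level. For all genes tested of up to 300 bases, median log2 differences were 0.12, 0.22 and -0.040 in mutant replicates 1, 2 and 3. With more than 300 and up to 600 bases they were 0.048, 0.11 and -0.053, and over 600 bases -0.019, -0.023 and 0.022. For the 14 of the 40 genes over 600 bases they were -0.34, -0.11 and -0.21. The part of *KCS1*, chromosome VI or gene length in the order of the mutant samples was not tested. The counts changed with the sample left out. Without mutant replicate 2, 35 genes were lower, 19 of them at an unadjusted p under 0.05 (47.5%, against 14.8% of all genes in that fit). There edgeR called *QCR10*, *CYC7*, *COX5A* and *COX6* lower (10%, against 5.78% of all genes). Without mutant replicate 1 the corresponding numbers of the 40 genes were 25 lower and 7 at an unadjusted p under 0.05 (17.5%, against 12.1% of all genes). Without mutant replicate 3 they were 25 and 3 (7.5%, against 11.9%), with 4 genes higher at that level (10%, against 9.34%) and 0 called by edgeR. With wild-type replicate 1, 2 or 3 left out, 28, 30 and 28 of the 40 genes were lower, and edgeR called 0. At an unadjusted p under 0.05, 4, 3 and 2 of them were lower (10, 7.5 and 5%) and 0 were higher. Of all genes in these fits, 857 of 6115, 752 of 6121 and 853 of 6115 had such a p in either direction. With all samples it was 1224 of 6083.

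**Figure D3:**
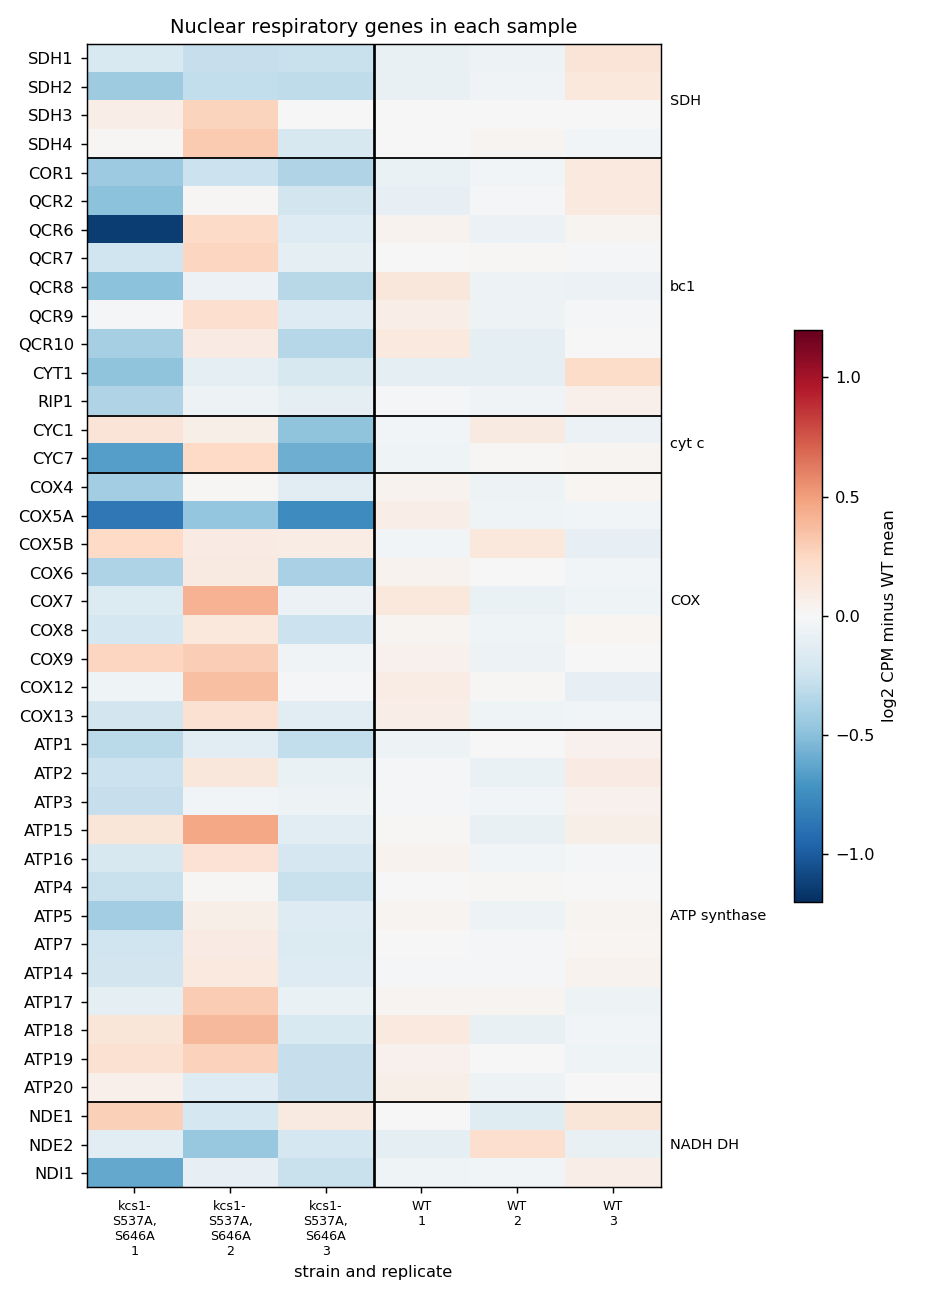
Log2 difference of each gene from its wild-type mean (colour) in the 3 mutant samples, left of the line, and the 3 wild-type samples, with rows grouped by complex. Mutant replicates 1 and 3 are mostly below 0 and mutant replicate 2 mostly above, and 11 genes, *SDH1*, *SDH2*, *COR1*, *QCR8*, *CYT1*, *RIP1*, *COX5A*, *ATP1*, *ATP3*, *NDE2* and *NDI1*, are below 0 in all 3.

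Succinate dehydrogenase oxidizes succinate in the TCA cycle and passes the electrons to ubiquinone. By value its 2 catalytic subunit genes were lower in the mutant and its 2 membrane anchor genes were higher, and none of the 4 passed the test in edgeR (2 lower at an unadjusted p under 0.05). The iron-sulfur subunit gene *SDH2* had 286, 314 and 311 CPM in the mutant, against 363, 374 and 421 CPM in wild type, so that the strains did not overlap. Its log2 fold change was -0.35 (SE 0.10, adjusted p = 0.091 from edgeR). *SDH1*, for the flavoprotein subunit, had 227, 212 and 213 CPM in the mutant, against 241, 246 and 287 CPM in wild type, a log2 fold change of -0.25 (SE 0.10, adjusted p = 0.21 from edgeR). All 3 mutant values of *SDH1* lay below the wild-type values as well. The anchor gene *SDH3* had 189, 215 and 179 CPM in the mutant, against 179, 178 and 178 CPM in wild type, with every mutant value above every wild-type value, though in replicate 3 by less than 1 CPM. Log2 fold changes were 0.12 for *SDH3* and 0.060 for *SDH4*, which encodes the other anchor (adjusted p = 0.49 and 0.84 from edgeR). *SDH4* had 152, 188 and 132 CPM in the mutant, against 151, 154 and 147 CPM in wild type, with mutant replicate 3 below, mutant replicate 1 within and mutant replicate 2 above the wild-type range. DESeq2 called *SDH2* (adjusted p = 0.013), and over all alternatives its adjusted p was 0.013 to 0.32.

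The bc1 complex moves electrons from ubiquinone to cytochrome c. Of its 9 nuclear genes, 8 had lower values in the mutant, with a median log2 fold change of -0.22, and 0 were called by edgeR (2 at an unadjusted p under 0.05). Summed over the complex, transcripts came to 2213, 3065 and 2657 CPM in the mutant and 3064, 2992 and 3282 CPM in wild type. The core subunit gene *COR1* (chromosome II, 134143 to 135516) had 508, 577 and 537.4 CPM in the mutant, against 651, 672 and 747 CPM in wild type. Every mutant value was lower than every wild-type value, with a log2 fold change of -0.35 (SE 0.10, adjusted p = 0.10 from edgeR). DESeq2 called *COR1*, with an adjusted p of 0.011 in a range of 0.011 to 0.36 over all alternatives. *QCR8*, for a small subunit that contacts cytochrome b, had 210.3, 282 and 235 CPM in the mutant, against 324, 284 and 281 CPM in wild type, a log2 fold change of -0.29 (SE 0.13, adjusted p = 0.25 from edgeR). *CYT1*, which encodes cytochrome c1, had 361, 466 and 442 CPM in the mutant, against 469, 468 and 588 CPM in wild type. *RIP1*, for the Rieske iron-sulfur protein, had 352, 434 and 416 CPM in the mutant, against 445, 440.4 and 473 CPM in wild type. The strains did not overlap in either gene, though in *CYT1* narrowly (466 against 468 CPM), with log2 fold changes of -0.27 and -0.18 (adjusted p = 0.34 and 0.41 from edgeR). *QCR2*, for the other core subunit, had 205, 293 and 248 CPM in the mutant, against 270.2, 284 and 314 CPM in wild type, and there the strains overlapped.

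*QCR6*, for the acidic hinge protein of the complex, lies on chromosome VI from 224326 to 224769. It had 190.1, 490.4 and 378 CPM in the mutant, against 431, 399 and 428 CPM in wild type. Mutant replicate 1 stood apart, with a log2 difference of -1.14 from the wild-type mean beside the chromosome's median of -0.96 in that sample. The log2 fold change of *QCR6* was -0.25 with all samples and 0.047 without mutant replicate 1. The remaining bc1 genes *QCR7*, *QCR9* and *QCR10* had log2 fold changes of -0.014, 0.018 and -0.20, with overlapping strains. *QCR7* had 193, 272 and 210.3 CPM in the mutant, against 228, 229.7 and 223 CPM in wild type, so the mutant samples fell on both sides of wild type. *QCR10* had 109, 154 and 113 CPM in the mutant, against 155, 132 and 144 CPM in wild type. It was the one of these called in the fit without mutant replicate 2, its highest mutant value (log2 fold change -0.38, adjusted p = 0.0493 from edgeR). With all samples its adjusted p was 0.48 from edgeR, and over all alternatives in edgeR and the other tools the range was 0.0493 to 0.77.

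Cytochrome c carries electrons between the 2 proton-pumping complexes and is made in 2 forms, iso-1 from *CYC1* and iso-2 from *CYC7*. *CYC1* had 201, 189.6 and 129 CPM in the mutant, against 176, 194 and 171 CPM in wild type. The low value was that of mutant replicate 3, and mutant replicate 1 was above every wild-type sample. *CYC7* had 21.8, 40.9 and 23.0 CPM in the mutant, against 33.4, 34.8 and 35.4 CPM in wild type, with mutant replicates 1 and 3 below and mutant replicate 2 above wild type. Neither gene passed the test, with log2 fold changes of -0.060 for *CYC1* and -0.27 for *CYC7* (adjusted p = 0.87 and 0.55 from edgeR). Without mutant replicate 2, the log2 fold change of *CYC7* was -0.63 (adjusted p = 0.011, in a range of 0.011 to 0.82 over all alternatives in edgeR and the other tools). The coding sequences of the pair are 77% identical, and their longest identical stretch is 35 bases.

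Cytochrome oxidase is the terminal enzyme of the chain. Subunit V exists in 2 forms, one from the aerobic gene *COX5A* and one from *COX5B*, which in yeast is known as the hypoxic gene. *COX5A* (chromosome XIV, 531725 to 532186) had 419, 549.9 and 452 CPM in the mutant, against 806, 733 and 745 CPM in wild type. The highest mutant value was well under the lowest wild-type value, and the log2 fold change was -0.68 (SE 0.12, adjusted p = 0.018 from edgeR). Against the mean of the wild-type samples, mutant replicates 1, 2 and 3 differed in *COX5A* by -0.86, -0.47 and -0.75 (log2), beside chromosome XIV medians of -0.52, -0.55 and -0.53. With each sample's chromosome XIV median taken out as an offset, the log2 fold change was -0.15 and the adjusted p was 0.59. The call was also lost without mutant replicate 3 (adjusted p = 0.060) and without wild-type replicate 1, 2 or 3 (adjusted p = 0.10, 0.090 and 0.082 from edgeR), with log2 fold changes between -0.71 and -0.64 in these 4 fits. Over all alternatives its adjusted p was 6.0e-06 to 0.59. *COX5B*, on chromosome IX from 155222 to 155765 with an intron of 88 bases in its coding region, had 17.2, 15.7 and 15.5 CPM in the mutant, against 14.3, 15.9 and 13.7 CPM in wild type. Its strains overlapped, and the log2 fold change was 0.14 (SE 0.11, adjusted p = 0.53 from edgeR).

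The start regions of both subunit V genes are shown because *COX5A* is the gene that passed the test and *COX5B* encodes the alternative form of its subunit. Each run holds 250 bases before and 50 after the first base of the start codon, read from the RefSeq R64 reference, which is the S288C genome and not that of Σ1278b. It is chrXIV:531475-531774 for *COX5A* and chrIX:154972-155271 for *COX5B*, both on the plus strand. Capitals mark CCAAT and ATTGTTC on either strand, so that ATTGG and GAACAAT are their reverse complements. CCAAT is the core bound by the Hap2/3/4/5 complex, and ATTGTTC is the core of the motif of Rox1, a repressor of hypoxic genes.
COX5A: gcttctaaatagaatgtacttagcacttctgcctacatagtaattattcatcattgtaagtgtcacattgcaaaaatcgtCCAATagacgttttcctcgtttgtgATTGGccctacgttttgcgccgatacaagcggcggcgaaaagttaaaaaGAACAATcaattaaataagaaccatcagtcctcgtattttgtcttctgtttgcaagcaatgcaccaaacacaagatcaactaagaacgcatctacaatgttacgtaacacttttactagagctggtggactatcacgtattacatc
COX5B: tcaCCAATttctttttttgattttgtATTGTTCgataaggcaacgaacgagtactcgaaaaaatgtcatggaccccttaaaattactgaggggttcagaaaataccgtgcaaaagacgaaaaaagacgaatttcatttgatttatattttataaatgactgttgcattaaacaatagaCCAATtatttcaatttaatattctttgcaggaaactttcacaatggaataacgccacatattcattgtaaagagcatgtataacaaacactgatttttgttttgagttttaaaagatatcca
Both windows hold CCAAT in 2 places and ATTGTTC in 1. CCAAT begins 170 and 145 bases before the start codon in *COX5A*, and 247 and 72 bases before it in *COX5B*. Over windows of this size, CCAAT occurred in 33 of the 40 genes (82.5%) and in 43.3% of the 6020 protein-coding genes of the reference with a full window, and ATTGTTC in 7 of 40 (17.5%) and in 7.64% of all. CCAAT was present in 4 of 4 succinate dehydrogenase, 7 of 9 bc1, 8 of 9 cytochrome oxidase and 12 of 13 ATP synthase genes, and in neither cytochrome c gene. A match of letters is not evidence of binding, and the absence of one says only that these letters are not in the window.

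The other 7 cytochrome oxidase genes, for small subunits around the mitochondrially encoded core, did not pass the test, with 3 higher and 4 lower by value. Subunit VI gene *COX6* had 195, 272 and 194 CPM in the mutant, against 260.1, 252 and 248 CPM in wild type, where mutant replicates 1 and 3 were below and mutant replicate 2 above all wild-type samples. The log2 fold change of *COX6* was -0.20 with all samples (adjusted p = 0.47) and -0.38 without mutant replicate 2 (adjusted p = 0.027, in a range of 0.027 to 0.70 over all alternatives). *COX9*, for subunit VIIa, had 283, 289 and 229 CPM in the mutant, against 245, 226 and 237 CPM in wild type, and a log2 fold change of 0.18. *COX4*, for subunit IV, had 251, 339 and 305 CPM in the mutant, against 344, 321 and 341 CPM in wild type, with mutant replicates 1 and 3 below and mutant replicate 2 within the wild-type range. *COX12*, for subunit VIb, had 167, 222 and 171 CPM in the mutant, against 184, 175 and 161 CPM in wild type, with mutant replicates 1 and 3 within and mutant replicate 2 above the wild-type range. *COX13*, for subunit VIa, had 186, 247 and 199.8 CPM in the mutant, against 231, 210.3 and 213 CPM in wild type, with mutant replicates 1 and 3 below and mutant replicate 2 above the wild-type range. For *COX4*, *COX8* and *COX13* the log2 fold changes were -0.17, -0.10 and -0.046, and for *COX7* and *COX12* they were 0.081 and 0.11. In *COX7*, mutant replicate 2 stood at 130.2 CPM, above the other 5 samples, which lay between 86.7 and 106 CPM.

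The ATP synthase consists of a catalytic F1 head (*ATP1*, *ATP2*, *ATP3*, *ATP15* and *ATP16*), a membrane-embedded Fo part and a stator that holds them together. None of its 13 genes among the 40 was called by edgeR, DESeq2 or limma-voom, and 1 had an unadjusted p under 0.05 in edgeR. Summed over the complex, transcripts came to 3594, 4454 and 3779 CPM in the mutant and 4216, 4138 and 4371 CPM in wild type, with mutant replicates 1 and 3 below and mutant replicate 2 above every wild-type sample. *ATP1*, for the alpha subunit, had 737, 842 and 751 CPM in the mutant, against 887, 926 and 959 CPM in wild type. It was the only gene of the complex with no overlap between strains, and its log2 fold change was -0.25 (SE 0.10, adjusted p = 0.22 from edgeR). *ATP2*, for the catalytic beta subunit, had 939, 1236 and 1063 CPM in the mutant, against 1112, 1059 and 1199.7 CPM in wild type, and a log2 fold change of -0.058. *ATP15*, for the epsilon subunit, had the largest positive log2 fold change of the 40 genes beside *COX9*, 0.18 (adjusted p = 0.53 from edgeR), with 127, 158 and 105 CPM in the mutant, against 116, 108 and 121 CPM in wild type. *ATP3*, for the gamma subunit of the central stalk, had 364, 432 and 423 CPM in the mutant, against 436, 429 and 456 CPM in wild type, with mutant replicates 1 and 3 below and mutant replicate 2 within the wild-type range. *ATP16*, for the delta subunit, had 128, 166 and 128 CPM in the mutant, against 151, 144 and 146 CPM in wild type, with mutant replicates 1 and 3 below and mutant replicate 2 above the wild-type range. Log2 fold changes were -0.12 for *ATP3* and -0.063 for *ATP16*.

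All 4 stator genes had lower values in the mutant, at -0.17 for *ATP4* (subunit b), -0.16 for *ATP5* (the oligomycin sensitivity protein OSCP), -0.095 for *ATP7* (subunit d) and -0.078 for *ATP14* (subunit h), and in all 4 the strains overlapped. *ATP4* had 334, 405 and 332 CPM in the mutant, against 399, 404 and 399 CPM in wild type, with mutant replicates 1 and 3 below and mutant replicate 2 above the wild-type range. *ATP5* had 194, 271 and 232 CPM in the mutant, against 264, 247 and 264 CPM in wild type, with mutant replicates 1 and 3 below and mutant replicate 2 above the wild-type range. Of the 4 Fo genes on the list of members, which is not a full list of Fo subunits, 3 had higher values. Log2 fold changes were 0.048 for *ATP17*, 0.13 for *ATP18*, 0.081 for *ATP19* and -0.12 for *ATP20*, which encodes subunit g of the dimer interface. *ATP18*, for subunit i/j, had 119, 142 and 95.0 CPM in the mutant, against 117, 102 and 106 CPM in wild type, with mutant replicate 3 below and mutant replicates 1 and 2 above the wild-type range. *ATP20* had 82.1, 71.0 and 65.3 CPM in the mutant, against 82.8, 75.6 and 78.6 CPM in wild type, with mutant replicates 2 and 3 below and mutant replicate 1 within the wild-type range. Adjusted p-values from edgeR were 0.55 or more for these 4 genes and 0.42 or more for the stator. The gene models of *ATP1* and *ATP14* overlap others by 251 and 32 bases, *ATP1* a gene on the opposite strand and *ATP14* one on its own strand, and how reads in these stretches were counted is not known.

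The NADH dehydrogenases feed electrons to ubiquinone. *NDI1*, the internal enzyme, had 157, 225 and 199.6 CPM in the mutant, against 233, 235 and 254 CPM in wild type. Its mutant values were below all wild-type values, and the log2 fold change was -0.31 (SE 0.13, adjusted p = 0.24 from edgeR). *NDE1*, the main external enzyme, had 1816, 1290.0 and 1609 CPM in the mutant, against 1496, 1348 and 1653 CPM in wild type. The order of its mutant samples was the reverse of that of most of the other genes, with mutant replicate 1 highest and mutant replicate 2 lowest. The log2 fold change of *NDE1* was 0.068 (SE 0.15, adjusted p = 0.84 from edgeR). *NDE2* had 35.9, 28.8 and 34.1 CPM in the mutant, against 36.4, 45.4 and 37.1 CPM in wild type. The strains did not overlap, though narrowly (35.9 against 36.4 CPM), and the log2 fold change of *NDE2* was -0.27 (SE 0.12, adjusted p = 0.27 from edgeR).

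Ratios of isoform transcripts within a sample do not depend on its depth. *COX5B* transcripts were 4.17, 2.89 and 3.48% of *COX5A* transcripts, per coding length, in mutant replicates 1, 2 and 3, and 1.80, 2.20 and 1.86% in the wild-type replicates. The strains did not overlap, with a mean log2 difference of 0.84 (exact permutation test, 2-sided, p = 0.1, adjusted p = 0.15 over 3 ratios). This is the smallest p that 3 samples against 3 allow. *CYC7* to *CYC1* was 10.5, 20.8 and 17.3% in the mutant and 18.3, 17.4 and 19.9% in wild type, a mean log2 difference of -0.25 that was within the spread of the mutant samples (exact permutation test, 2-sided, p = 0.6, adjusted p = 0.6). *NDE2* to *NDE1* was 2.03, 2.29 and 2.18% in the mutant and 2.50, 3.46 and 2.31% in wild type, without overlap though narrowly (2.29 against 2.31%). The mean log2 difference was -0.33 (exact permutation test, 2-sided, p = 0.1, adjusted p = 0.15). The denominator of the first ratio is *COX5A*, with a log2 fold change of -0.68, or -0.15 with the chromosome offset, while that of *COX5B* was 0.14. Without wild-type replicate 2, the difference for *NDE2* to *NDE1* was -0.15. In coding sequence, *COX5A* and *COX5B* are 67.5% identical and *NDE1* and *NDE2* 64% identical, with no shared stretch longer than 12 bases.

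**Figure D4:**
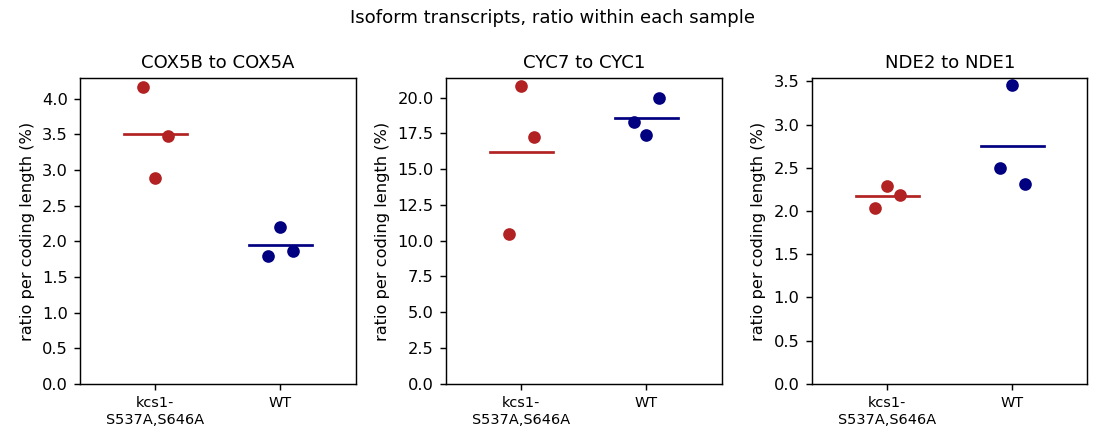
Transcripts of the minor isoform as a percentage of the major one, per coding length, in each mutant and wild-type sample, with lines at the group means. The 3 mutant samples lie above wild type for *COX5B* to *COX5A*, between 2.89% and 4.17%, overlap it for *CYC7* to *CYC1* and lie below it for *NDE2* to *NDE1*.

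Across the 40 genes, log2 fold change and coding length had a Spearman correlation of -0.50, against -0.068 across all genes tested, where genes are not independent replicates and share their libraries. Of the 10 genes with up to 300 bases of coding length, 7 had higher values in the mutant and their median log2 fold change was 0.081. Of the 16 genes with more than 300 and up to 600 bases, 4 were higher, with a median of -0.070, and of the 14 longer genes 1 was higher (*NDE1*), with a median of -0.23. Over all genes tested, the medians of these length classes were 0.13, 0.047 and 0.0043. Relative to genes of like length, the 3 classes of the 40 genes were therefore lower by value, and the difference was largest in the longest class. The longest class includes the catalytic and core subunit genes *SDH1*, *SDH2*, *COR1*, *QCR2*, *CYT1*, *ATP1*, *ATP2* and *NDI1*, while the shortest holds mainly small accessory subunits, so that length and role cannot be told apart. The class limits were set after the values were seen. With an offset for gene length in each sample, 32 of the 40 genes were lower and *COX5A* was again the gene called.

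**Figure D5:**
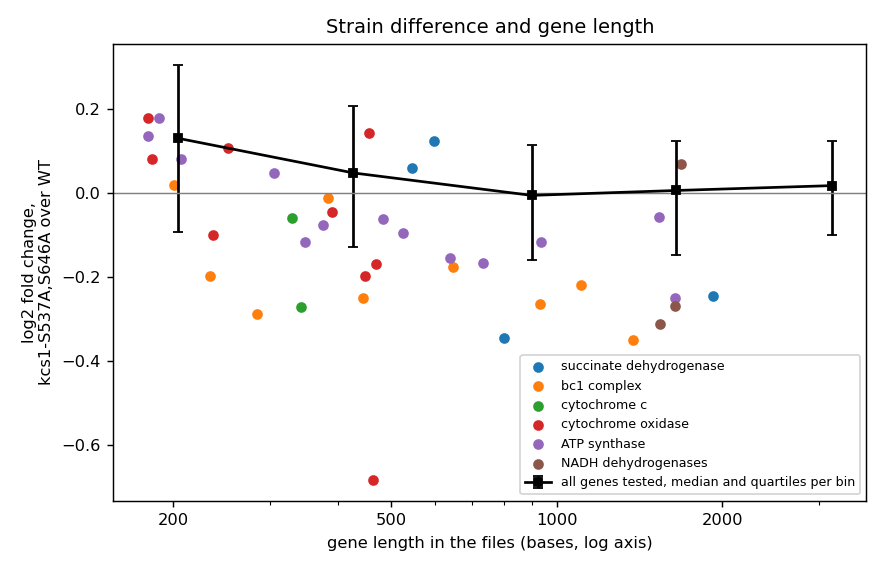
Log2 fold change, *kcs1*-S537A,S646A over wild type, against gene length in bases on a log axis, with coloured points for the 40 genes by complex and black squares for the median of all genes tested in 5 length classes, with bars from the lower to the upper quartile. The 10 shortest genes lie around 0 and most of the 14 genes over 600 bases lie below the median of all genes.

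Other respiratory genes were taken from a list of 78 genes, of which 71 were tested. In edgeR, 3 of the 71 were called, all lower and all on chromosome XIV (4.23%, where 4.67% of all genes tested were called lower). Outside chromosomes XIV and VI, 0 of the listed genes were called, where 0.902% of all genes tested there were called lower. *ATP11* and *ATP23*, which encode assembly factors of the ATP synthase, had log2 fold changes of -0.54 (SE 0.084, adjusted p = 0.0096 from edgeR) and -0.58 (SE 0.088, adjusted p = 0.0092 from edgeR). *ATP11* had 54.2, 63.3 and 60.9 CPM in the mutant, against 89.2, 83.2 and 87.9 CPM in wild type. *COQ2*, an early enzyme of ubiquinone synthesis, had 23.1, 23.5 and 18.7 CPM in the mutant, against 35.2, 34.0 and 27.5 CPM in wild type, a log2 fold change of -0.57 (SE 0.13, adjusted p = 0.0497 from edgeR). Beside these 3 log2 fold changes, the chromosome XIV medians were -0.52, -0.55 and -0.53 in mutant replicates 1, 2 and 3. The part of the chromosome in the 3 calls was not tested. By group, 2 of 13 genes listed under ATP synthase assembly and regulation and 1 of 9 ubiquinone synthesis genes were called. The count was 0 of 23 for cytochrome oxidase assembly, 0 of 12 for bc1 and cytochrome c assembly and 0 of 4 for genes listed under further dehydrogenases. It was 0 of 4 for the adenine nucleotide and phosphate carriers and 0 of 6 for the regulators. At an unadjusted p under 0.05 in edgeR, 12 of the 71 genes were lower and 3 were higher (16.9% lower and 4.23% higher, against 11.9% lower and 8.24% higher of all genes). The 12 include the 3 called genes of chromosome XIV. Outside chromosomes XIV and VI, 6.87% of all genes tested were lower at that level. DESeq2 called 6 of the 71, all lower (8.45%, against 6.92% of all genes called lower by DESeq2), adding *COQ6* of ubiquinone synthesis, the glycerol-3-phosphate dehydrogenase gene *GUT2* and *PET9*, the main adenine nucleotide carrier, with log2 fold changes of -0.34, -0.37 and -0.34 in edgeR. These 3 added genes lie outside chromosomes XIV and VI, where DESeq2 called 2.26% of all genes tested lower. All 9 ubiquinone genes had log2 fold changes below 0, where 46.8% of all genes tested did, and their median was -0.23. The median of the 71 genes was -0.077. The 7 subunit genes encoded in mitochondrial DNA had between 0 and 11 counts in each poly(A) library and were not tested.

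*HAP4*, the regulated activator subunit of the CCAAT-binding complex, had 854, 571 and 811 CPM in the mutant, against 813, 707 and 869.6 CPM in wild type. Mutant replicate 2, in which most of the 40 genes were highest among the mutant samples, had the lowest *HAP4* level of all 6, and whether *HAP4* bears on that order was not tested. The log2 fold change of *HAP4* was -0.10 (SE 0.17, adjusted p = 0.80 from edgeR). For *HAP2*, *HAP3* and *HAP5*, which form the DNA-binding part, it was -0.15, 0.25 and -0.14, and for *HAP1*, a heme-responsive activator of *CYC1* and *CYC7*, it was -0.065, with adjusted p-values of 0.27 or more from edgeR. *ROX1* had 341, 203 and 284 CPM in the mutant, against 343, 319 and 351 CPM in wild type, and was likewise lowest in mutant replicate 2.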

How the data were processed

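RNA was measured in 6 samples, 3 colonies per strain. For the authors, a sequencing provider removed adapter and low-quality reads, mapped the rest with HISAT2 2.0.5 and counted fragments per gene with featureCounts 1.5.0-p3. The authors deposited these raw counts, and FPKM values computed from them. The mean FPKM table per strain was not used. Genome build and strand setting are not given in the sources used here. All 40 members have the same coordinates in RefSeq R64, from which start regions and coding sequences were read, and gene lengths in the files equal coding lengths. The amino acid sequences were not analysed here.

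The main test was that of edgeR 4.0.16 in R 4.3.3 (filterByExpr with a minimum of 10 counts, TMM, glmQLFit, glmQLFTest, 2-sided, Benjamini-Hochberg over 6083 genes, threshold 0.05). Standard errors (SE) were derived from each gene's log2 fold change and its F statistic. Log2 differences from the wild-type mean used log2 CPM with a prior count of 2. The biological coefficient of variation was 0.129. The fit was tested on simulated data.

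The members and lists were chosen with earlier results of these data known, including those on chromosomes XIV and VI. The named genes are all 40 members, *KCS1*, the listed genes called by edgeR and the Hap genes. *ROX1* and the genes called only by DESeq2 were named after their values were seen. Alternatives were DESeq2 size factors, library totals, other filters, DESeq2 1.42.0, limma-voom and limma-trend on log2(FPKM + 1) (limma 3.58.1), a replicate block, each sample left out, and 2 treatments of chromosomes XIV and VI. The offset for gene length was added after the data were examined. Replicates carry numbers in the labels, but no source pairs colonies. Samples were left unpaired.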

Additional observations from a re-analysis of the deposited data

How the results depend on the processing

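Against 60 genes called higher and 284 called lower over all genes tested, the calls came to 36 higher and 303 lower with library totals, 159 and 420 with DESeq2, 9 and 7 without chromosomes XIV and VI, and 13 and 6 with the offset for both. With the replicate block there were 35 higher and 247 lower, and no call among the 40 genes changed. Over all genes tested, deviations of same-numbered mutant and wild-type samples had correlations of -0.13, 0.024 and 0.34, and the samples numbered 3 alone correlated best with their own number, so the numbers were not taken to pair the samples. Leaving out 1 sample gave from 8 to 128 higher and from 76 to 353 lower. The causes were not tested, beyond the fewer samples or genes that some settings hold. Of the 40 genes, *COX5A* was called under 11 of the 16 alternatives that hold it and was lower under all 16. *SDH2* and *COR1* were lower under all 17 and called by DESeq2 only, and *QCR10*, *CYC7* and *COX6* were called only without mutant replicate 2. Library totals moved the median of all genes to -0.048 and that of the 40 genes to -0.17.

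Some values changed sign. With library totals *QCR9*, *ATP17* and *NDE1* had log2 fold changes of -0.040, -0.0068 and -0.0033, and without chromosomes XIV and VI *QCR9* had -0.0025. With the offset for gene length, *QCR9*, *COX7*, *ATP17* and *ATP19* had -0.061, -0.0071, -0.0035 and -0.0015. With 1 sample left out, the ranges were -0.091 to 0.17 for *SDH4*, -0.57 to 0.047 for *QCR6*, -0.18 to 0.084 for *QCR7*, -0.087 to 0.10 for *QCR9*, -0.18 to 0.11 for *CYC1*, -0.13 to 0.19 for *COX7*, -0.040 to 0.18 for *COX12*, -0.18 to 0.034 for *COX13*, -0.17 to 0.031 for *ATP2*, -0.20 to 0.0022 for *ATP16*, -0.11 to 0.12 for *ATP17*, -0.016 to 0.27 for *ATP18*, -0.032 to 0.23 for *ATP19* and -0.052 to 0.19 for *NDE1*. The log2 difference of *CYC7* to *CYC1* ranged from -0.46 to 0.034 and was above 0 only without mutant replicate 1. Depth bears most on *COX5B*, the gene with the fewest counts (from 262 to 353 per sample).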
